A study of Mus musculus with 24 samples.

Results

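The normal mammary gland of female FVB mice was compared between week 6 and week 12 of age. The comparison used the 6 control libraries whose labels name these weeks, 3 per week, out of 24 small RNA libraries, and covered every miRNA row of the deposited counts. The control mice carry no transgene and are homozygous FVB animals, so all 6 libraries share strain, sex and genotype. Each library came from a snap-frozen gland of a separate mouse. The series also holds controls of weeks 8 and 10 and glands or tumors of PyMT mice of all 4 weeks, in which the MMTV promoter drives the polyoma middle T oncogene in mammary epithelium on the same FVB background. Of 510 listed miRNAs, 342 had a count in the 6 libraries and 237 passed the low-count filter and were tested. The table lists 59 miRNAs whose RefSeq genes lie on the X chromosome alone, and all 59 stand at 0 in all 24 libraries, among them miR-223, so their 0 was not read as a level. Total counts of the 6 libraries ranged from 1949948 to 3651238, and 3 counts, taken as the detection floor, equal 0.778 to 1.42 CPM.

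A miRNA is a short RNA that pairs with messenger RNAs mainly through its seed, bases 2 to 8 from the 5′ end, and lowers their output. In young female mice the ducts of the mammary gland are still elongating through the fat pad, while in the adult virgin they have filled it, so the samples span the end of pubertal growth. Many miRNAs are made in clusters from a single long transcript. The cluster of the imprinted Dlk1-Dio3 domain is expressed from the maternal chromosome, is known for high levels in embryonic and young tissue, and shares its domain with the maternally expressed noncoding RNAs Meg3, Rian and Mirg and with the paternally expressed genes Dlk1, Rtl1 and Dio3.

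The miRNAs that passed the test were members of that cluster. Their RefSeq genes lie on chromosome 12 of GRCm38.p6, the assembly that corresponds to the mm10 build of the study's methods, although the labels of the libraries end in mm9 and the deposited table holds no coordinates. All 39 tested members were found there, between positions 109571990 and 109743795, a span of 171.8 kb. No other tested miRNA with a single RefSeq gene lies in that span. The first 9 members, from miR-673 to miR-136, lie within the RefSeq span of Rtl1, and miR-127 is at chr12:109592846-109592915. The next 2, miR-341 and miR-370, lie within Rian. The other 28 form a dense run from miR-379 at chr12:109709060-109709125 to miR-410 at chr12:109743715-109743795, whose last members lie within Mirg.

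Mature sequences from RefSeq are shown for 5 sets of members. The deposited counts merge the 5p and 3p arms of a hairpin, so which arm was sequenced cannot be told. Capitals mark the seed. The first set is miR-127, the most counted member, which is transcribed opposite to Rtl1 and pairs with it perfectly.
miR-127-5p: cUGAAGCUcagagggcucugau
miR-127-3p: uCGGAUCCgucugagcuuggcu

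The second set is miR-434, the next most counted member, from the same stretch opposite to Rtl1.
miR-434-5p: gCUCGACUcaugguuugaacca
miR-434-3p: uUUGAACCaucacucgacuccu

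The third set shows members of the dense run that share a seed in at least 1 arm. Among 74 mature sequences of the 39 members there were 70 distinct seeds, and 4 seeds were shared by a pair of members.
miR-379-5p: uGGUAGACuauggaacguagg
miR-1193-5p: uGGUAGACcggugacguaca
miR-379-3p: uAUGUAACaugguccacuaacu
miR-411-3p: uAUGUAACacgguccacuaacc

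The fourth set shows members with a similar arm. The 5p arms of miR-376b and miR-376c differ at 1 of 22 positions, so reads with a sequencing error could be exchanged between these arms. The 3p arms of miR-300 and miR-381 differ at 3 of 22.
miR-376b-5p: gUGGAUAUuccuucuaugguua
miR-376c-5p: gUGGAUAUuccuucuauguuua
miR-300-3p: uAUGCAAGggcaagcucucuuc
miR-381-3p: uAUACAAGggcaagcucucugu

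The fifth set is miR-377, near the end of the run, whose fold change was among the lowest.
miR-377-5p: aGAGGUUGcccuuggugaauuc
miR-377-3p: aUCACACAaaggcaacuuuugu

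At week 12, 25 miRNAs were under-expressed relative to week 6, which is 10.5% of those tested, and none (0%) was over-expressed, by edgeR's quasi-likelihood test at an adjusted p-value under 0.05. At an unadjusted p-value under 0.05 there were 41 lower and 11 higher miRNAs, and DESeq2 called 34 lower and 7 higher. Each of the 25 is a Dlk1-Dio3 member, and none of the 198 other tested miRNAs was called. Of the 53 members listed, 50 had a count in the 6 libraries and 39 were tested. All 39 had a log2 fold change below 0, with a median of -1.64 and a range of -2.83 to -0.78, beside a median of 0.02 over all tested miRNAs. The 3 week 12 libraries lay below the 3 week 6 libraries for 37 of the 39, including all 25 called, while such separation downward was found for 40 of all 237 tested (16.9%).

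**Figure D1:**
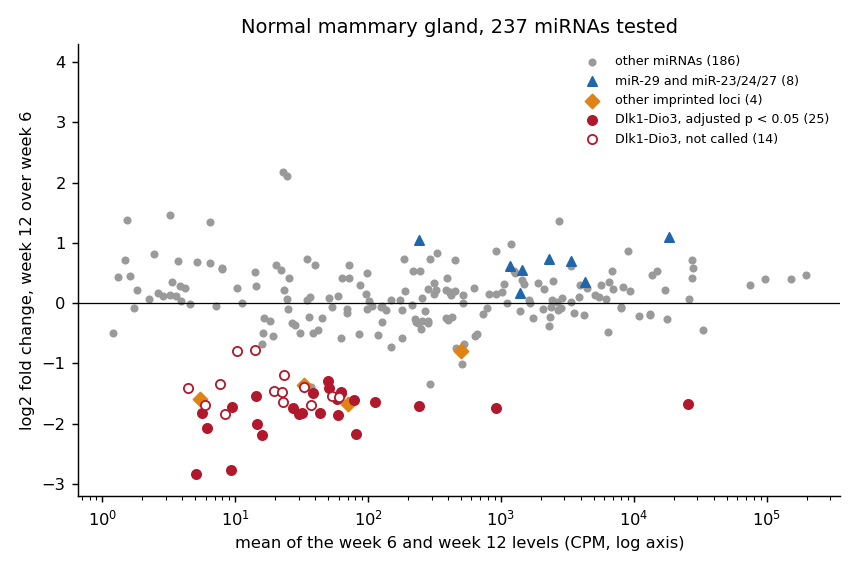
Log2 fold change of week 12 over week 6 (vertical axis) against the mean level of the 2 weeks in CPM (horizontal log axis) for 237 miRNAs in normal gland, with the Dlk1-Dio3 members in red (filled where called), other imprinted loci in orange and the miR-29 and miR-23/24/27 miRNAs in blue. The 39 red points lie between -2.83 and -0.78, at mean levels from 4.41 to 25411 CPM.

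The adjusted p-values of the 25 called members lay between 0.0337 and 0.0466, close to the threshold, and the number of calls depended on single libraries. Without week 6 replicate 1, 2 or 3, or without week 12 replicate 1, no miRNA passed, with smallest adjusted p-values of 0.08, 0.0908, 0.0645 and 0.151. At an unadjusted p-value under 0.05 these reduced sets gave 62, 45, 46 and 41 miRNAs. Without week 12 replicate 3 there were 9 calls, all members, and without week 12 replicate 2 there were 33, of which 28 were members and 5 were higher miRNAs. The log2 fold changes of the 39 members stayed below 0 in each of these 6 sets, with medians between -1.87 and -1.43. On simulated counts the same test recovered 15.7% of changes of 1 log2 unit and 76.2% of changes of 2 log2 units.

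The stretch opposite Rtl1 held the most counted miRNAs of the cluster. miR-127 had 36901, 36120 and 42654 CPM in the week 6 libraries and 10971, 15783 and 10038 CPM in the week 12 libraries. The groups did not overlap, and even the highest week 12 library was well below the lowest week 6 library. Its log2 fold change was -1.68 ± 0.24 (SE, adjusted p = 0.0337). miR-127 alone made up 89.7% to 93% of the summed CPM of all listed members in the 6 libraries.

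miR-434 had 1630, 1230 and 1355 CPM at week 6 and 528, 497 and 266 CPM at week 12. Here week 12 replicate 3 was the low sample, and the groups again did not overlap. The log2 fold change was -1.73 ± 0.34 (SE, adjusted p = 0.0337). The other called members within Rtl1 were miR-540, miR-337, miR-136, miR-431 and miR-673, with log2 fold changes from -2.01 to -1.49. miR-433, also opposite to Rtl1, had 55.3, 54.1 and 32.4 CPM at week 6 and 14.3, 23.5 and 18.1 CPM at week 12 and missed the threshold (adjusted p = 0.0505). miR-665, with 1 library at 0.972 CPM at week 12, was not called either (log2 fold change -1.84 ± 0.65, adjusted p = 0.135). In all, 7 of 9 tested members of this stretch were called, with a median log2 fold change of -1.68.

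Both members within Rian were called. miR-341 had 53.9, 40.8 and 53.2 CPM at week 6 and 17.2, 17.8 and 6.98 CPM at week 12. Its week 12 libraries were all below its week 6 libraries, and its log2 fold change was -1.83 ± 0.41 (SE, adjusted p = 0.0412). miR-370 had 15.6, 14 and 13.7 CPM at week 6 and 3.56, 6.87 and 2.88 CPM at week 12, a log2 fold change of -1.72 ± 0.40 (adjusted p = 0.0423).

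In the dense run from miR-379 to miR-410, 16 of 28 tested members were called, and the median log2 fold change of the 28 was -1.58. miR-411, the most counted member of the run, had 382, 300.1 and 415 CPM at week 6 and 127, 131.8 and 80.9 CPM at week 12. Its groups did not overlap, and its log2 fold change was -1.71 ± 0.31 (SE, adjusted p = 0.0337). miR-154 had 134, 89.3 and 176 CPM at week 6 and 27.2, 47.3 and 14.4 CPM at week 12. The spread within each week was wider for miR-154 than for miR-411, and its log2 fold change was -2.16 ± 0.51 (adjusted p = 0.0459).

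miR-410, the last member of the run, had 67.6, 57.6 and 77.5 CPM at week 6 and 14.9, 29.9 and 13.1 CPM at week 12. Week 12 replicate 2 was the high sample of its group, as it was for miR-127 and miR-154. The log2 fold change was -1.82 ± 0.39 (adjusted p = 0.041). miR-381 had 46.8, 37.7 and 57 CPM at week 6 and 14.9, 16.6 and 8.63 CPM at week 12. Its neighbor miR-300, which has a similar arm, had 35.4, 34.2 and 56 CPM and 12.3, 16.2 and 9.45 CPM. Both were called, with log2 fold changes of -1.83 and -1.74. miR-376b had 26.5, 21.3 and 30.1 CPM at week 6 and 6.48, 8.09 and 2.46 CPM at week 12, and miR-376c had 65.7, 67 and 78 CPM and 26.2, 35.6 and 26.3 CPM. The log2 fold changes of miR-376b and miR-376c, which have a similar arm, were -2.19 ± 0.45 and -1.29 ± 0.25. The latter was the smallest in size among the 25 called.

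**Figure D2:**
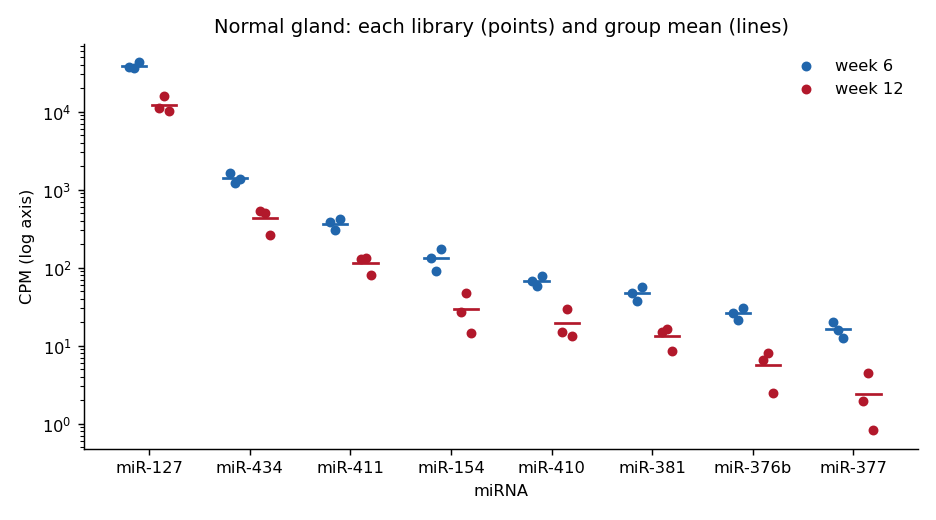
CPM (log axis) of 8 called Dlk1-Dio3 miRNAs in the 3 week 6 (blue) and 3 week 12 (red) normal libraries, with a line at each group mean. For each of the 8 the red points lie below the blue points, from miR-127 (10038 CPM in its lowest library) to miR-377 (0.821 CPM).

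The 2 members with the lowest fold changes were also among the least counted. miR-377 had counts of 42, 46 and 49 at week 6 and 6, 11 and 2 at week 12, and a log2 fold change of -2.76 ± 0.56 (SE, adjusted p = 0.0343). miR-380 had counts of 14, 30 and 37 at week 6 and 5, 5 and 0 at week 12, and a log2 fold change of -2.83 ± 0.69 (adjusted p = 0.0466). With 2 and 0 counts in week 12 replicate 3, the size of both changes depends on few reads. The remaining called members of the run, miR-382, miR-1193, miR-409, miR-666, miR-329, miR-379 and miR-485, had log2 fold changes between -2.07 and -1.41. Of these, miR-382 and miR-1193 were also low, with week 12 means of 2.38 and 2.49 CPM beside 2.40 CPM for miR-377.

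The 14 members not called had log2 fold changes between -1.84 and -0.78 and adjusted p-values between 0.0505 and 0.302. Their mean levels were lower, with a median of 21.1 CPM beside 43.4 CPM for the called members. Beside miR-433, miR-667 and miR-668 also missed the threshold at an adjusted p-value of 0.0505. miR-495 and miR-543 were the only 2 of the 39 whose groups overlapped. miR-495 had 11.8, 18.1 and 22.8 CPM at week 6 and 10, 13.3 and 7.8 CPM at week 12. miR-134, known as a regulator of dendritic spines in neurons, had 64.2, 83.4 and 122 CPM and 18.8, 54.6 and 18.1 CPM (log2 fold change -1.56 ± 0.53, adjusted p = 0.134). Of the 14 listed members that the filter removed, 3 had no count in the 6 libraries and the other 11 had 139 counts at week 6 and 28 at week 12, with more at week 6 for 9 of them.

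**Figure D3:**
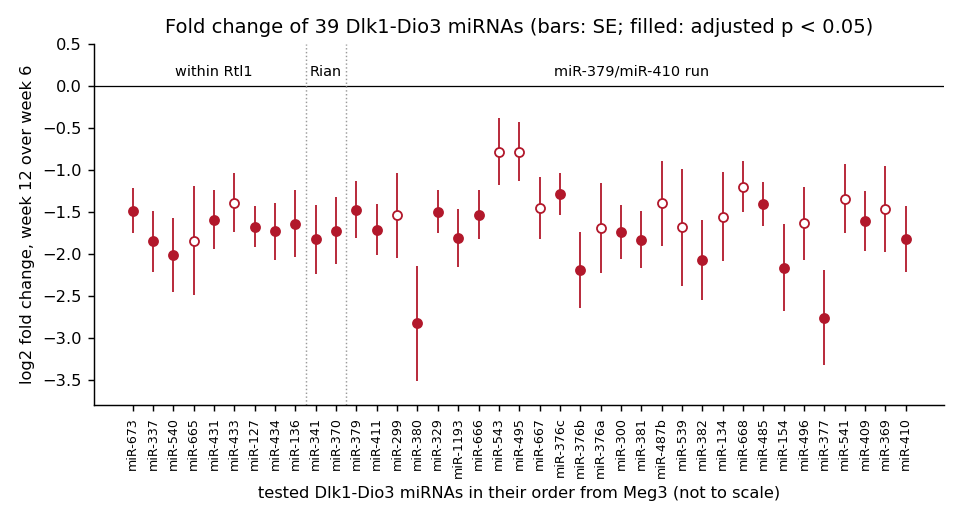
Log2 fold change of week 12 over week 6 (bars: SE) for the 39 tested Dlk1-Dio3 miRNAs in their order from Meg3 (not to scale), filled where called. All points lie below 0, in the Rtl1 stretch (7 of 9 called), in Rian (2 of 2) and in the miR-379 to miR-410 run (16 of 28).

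The sequencing lane is part of the labels and was not balanced. Week 6 replicates 1 and 2 and week 12 replicate 1 were on lane 1, and the other libraries were on lane 2. Within lane 1 all 39 members were lower at week 12, with a median log2 difference of -1.44 beside 0.09 over all tested miRNAs. Within lane 2 all 39 were again lower, with a median of -1.76 beside -0.11. With the lane as a covariate 20 members were called.

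The libraries also differed in miRNAs of other tissues, which bulk libraries of a whole gland can hold. In bulk tissue fewer cells of a type and less RNA per cell cannot be told apart. The skeletal muscle list (miR-1, miR-133a, miR-133b, miR-206, miR-208b and miR-499) had 6 of 6 members with a count and summed to 87490, 29090 and 95.7 CPM at week 6 and to 89370, 2466 and 711 CPM at week 12. The first library of each week was thus rich in muscle miRNAs. In these 2 libraries the summed Dlk1-Dio3 level was 40780 CPM at week 6 and 12220 CPM at week 12. In replicate 3, the lowest in muscle miRNAs of each week, it was 46370 and 10790 CPM. These are values of single libraries, and the part of muscle in the Dlk1-Dio3 level was not tested. Without the first library of each week all 39 members were lower, with a median log2 fold change of -1.6. None passed the test of 2 against 2 libraries (44 miRNAs at an unadjusted p-value under 0.05). Week 6 replicate 2 also held more muscle miRNAs than the remaining libraries. Without it as well, which leaves week 6 replicate 3 alone against 2 week 12 libraries and assumes that it varies like them, all 39 were lower with a median of -1.67 and none was called (19 miRNAs at an unadjusted p-value under 0.05). With the muscle level as a covariate 27 members were called.

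The erythroid list, 3 of 3 members detected, ranged from 7797 to 34560 CPM at week 6 and from 11170 to 29330 CPM at week 12. The epithelial list, 11 of 11 detected and including the miR-200 family that marks epithelium, ranged from 16080 to 23000 CPM and from 15360 to 30670 CPM. Thus the glands of both weeks held the epithelial miRNAs, and these lists overlapped between the weeks. The adipocyte-linked list (12570 to 30110 and 14500 to 31900 CPM), the endothelial miR-126 (20800 to 26310 and 23190 to 37460 CPM) and the neural list (182.5 to 798 and 255 to 1080 CPM) overlapped as well. Of these lists of cell types, 2 did not overlap between the weeks in TMM-scaled CPM. The smooth muscle and stroma list, to which miR-143 belongs, had 285900 to 345800 CPM at week 6 and 403000 to 490700 CPM at week 12. The leukocyte list, 4 members of which were detected and the X-linked miR-223 not read, had 3130 to 3813 CPM and 3826 to 5627 CPM. As percent of the counts of a library both lists overlapped. The smooth muscle and stroma list made up 38.2% in week 6 replicate 3, above the 34.4% in week 12 replicate 1. The leukocyte list made up 0.427% in week 6 replicate 2, above the 0.406% in week 12 replicate 2. The separation of these lists thus depended on the scaling. The part of the CPM differences in the lower Dlk1-Dio3 level was not tested.

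**Figure D4:**
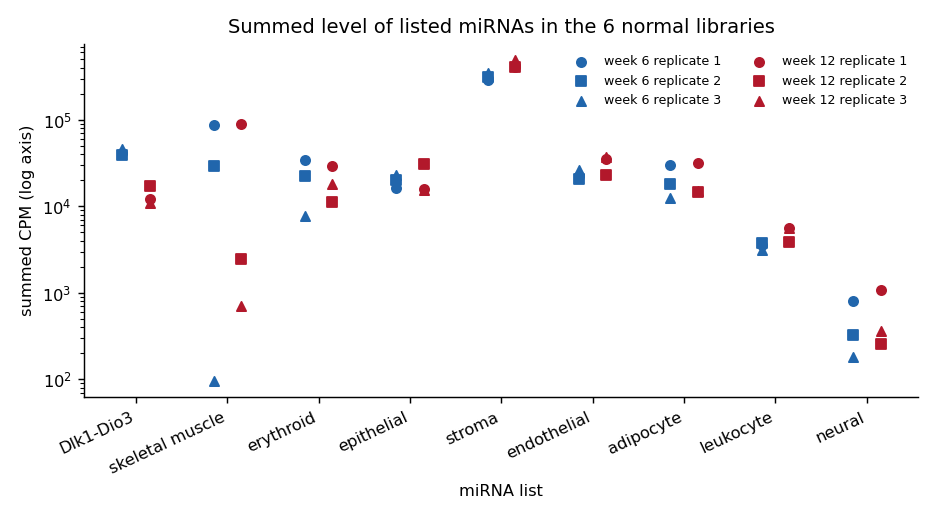
Summed CPM (log axis) of listed miRNAs in the 6 normal libraries, week 6 in blue and week 12 in red, with a symbol for each replicate. The Dlk1-Dio3 sums separate the weeks (39260 to 46370 and 10790 to 17180 CPM), while the skeletal muscle sums range from 95.7 to 89370 CPM within the groups.

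The miRNAs that leaned upward at week 12 did not pass the test. The 8 with the lowest p-values were miR-215, miR-23a, miR-150, miR-29a, miR-29b, miR-592, miR-143 and miR-125a, with adjusted p-values from 0.0811 to 0.135. Complete separation upward was found for 20 of the 237 tested miRNAs (8.44%), including 6 of these 8. Under alternative settings several of them were called higher, as given with the effects of the processing.

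The miR-29 family, known to repress collagens and other matrix genes, is shown with its shared seed.
miR-29a-3p: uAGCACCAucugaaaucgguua
miR-29c-3p: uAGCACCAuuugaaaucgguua

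miR-29a had 15693, 10614 and 8115 CPM at week 6 and 32450, 18363 and 25864 CPM at week 12. The lowest week 12 library was above the highest week 6 library, and the log2 fold change was 1.10 ± 0.34 (SE, adjusted p = 0.102). miR-29b had 188, 124 and 154 CPM and 442, 279 and 262 CPM (log2 fold change 1.04 ± 0.32, adjusted p = 0.102). miR-29c overlapped between the weeks, with a log2 fold change of 0.71 ± 0.39 (adjusted p = 0.332). The 3 members thus leaned the same way, with a median of 1.04 and none called.

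miR-215 is shown with miR-192, with which it shares its seed.
miR-215-5p: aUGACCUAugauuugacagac
miR-192-5p: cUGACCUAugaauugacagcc

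miR-215 had 5.20, 6.28 and 12.4 CPM at week 6 and 53.5, 10.9 and 48.9 CPM at week 12, so that week 12 replicate 2 fell within the week 6 range. Its log2 fold change was 2.17 ± 0.62 (SE, adjusted p = 0.0811). miR-192 had a log2 fold change of 0.50 ± 0.24 (adjusted p = 0.291).

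miR-23a, from the cluster it forms with miR-24 and miR-27a, had 1904, 1619 and 1534 CPM at week 6 and 3274, 2234 and 3195 CPM at week 12 (log2 fold change 0.73 ± 0.21, adjusted p = 0.0811). All 5 tested miRNAs of the miR-23/24/27 list had values above 0, with a median of 0.55. miR-150, abundant in mature lymphocytes, had 641, 631 and 616 CPM and 1242, 767 and 1566 CPM (0.86 ± 0.26, adjusted p = 0.102). The 4 tested leukocyte miRNAs had a median of 0.45. miR-125a, a relative of lin-4, had 7305, 5474 and 5874 CPM and 11392, 7146 and 17179 CPM (0.87 ± 0.31, adjusted p = 0.135). miR-592 was low, with 2.83, 2.09 and 5.45 CPM and 5.83, 9.70 and 12.7 CPM (1.35 ± 0.44, adjusted p = 0.123).

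The most counted miRNAs of the 6 libraries were miR-143, miR-10b, miR-148a, miR-10a and miR-133a. miR-143, a miRNA of smooth muscle and stroma, had 143430, 173960 and 169990 CPM at week 6 and 232660, 207670 and 255420 CPM at week 12 (log2 fold change 0.47 ± 0.16, adjusted p = 0.132). miR-10b and miR-10a, which lie in Hox clusters, had log2 fold changes of 0.41 ± 0.18 and 0.31 ± 0.22, and miR-148a had 0.40 ± 0.25, and none was called. miR-133a of striated muscle ranged from 90.8 to 84623 CPM within week 6, and its log2 fold change of -0.44 ± 2.14 (SE) was smaller than its error.

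Imprinted miRNAs outside the Dlk1-Dio3 domain were 4 of 5 listed and tested, all with log2 fold changes below 0 (median -1.47) and none called. miR-298, which with miR-296 lies in the imprinted Gnas region, had 44.9, 145 and 131 CPM at week 6 and 25.9, 29.9 and 47.2 CPM at week 12. Week 6 replicate 1 was low and overlapped the week 12 group, and the log2 fold change was -1.68 ± 0.47 (SE, adjusted p = 0.0786). It was called lower by DESeq2 (adjusted p = 0.00584), by edgeR's classic exact test (0.0191), in the fit of all 24 libraries (0.0225) and with the muscle level as a covariate (0.0457). miR-296 had 20.3, 56.9 and 62.2 CPM and 19.1, 10.5 and 26.7 CPM (-1.35 ± 0.48, adjusted p = 0.137). miR-335, from an intron of the imprinted gene Mest, had 335, 342 and 1197 CPM and 197, 311 and 594 CPM, with overlap (-0.79 ± 0.59, adjusted p = 0.464). miR-483, from an intron of Igf2, had a log2 fold change of -1.59 ± 1.25 (adjusted p = 0.49).

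Other families had no call in either direction in the 6-library fit. All 4 miR-181 miRNAs had values below 0 (median -0.59), of which miR-181b separated the weeks with 535, 551 and 839 CPM at week 6 and 414, 431 and 380 CPM at week 12 (adjusted p = 0.135). In the fit of all 24 libraries miR-181b and miR-181d were called lower (adjusted p = 0.0491 and 0.0302). All 4 miRNAs of the list that holds miR-26a and miR-26b (median 0.54) and all 5 miR-30 miRNAs (median 0.23) had values above 0. miR-26a and miR-26b were called higher with the lane as a covariate (adjusted p = 0.0473 for both), with the muscle level as a covariate (0.0414 and 0.0434) and in the fit of all 24 libraries (0.0239 and 0.0124). The let-7 family, known to increase with differentiation, had a median of -0.145 over 8 tested members, with 3 above and 5 below 0. The miR-17/92 family had a median of -0.31 over 10 and the epithelial list of -0.09 over 11.

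The normal libraries of weeks 8 and 10 lie between the compared ages. The summed Dlk1-Dio3 level was 40780, 39260 and 46370 CPM at week 6, 13140, 26470 and 26980 CPM at week 8, 10410, 16420 and 25820 CPM at week 10 and 12220, 17180 and 10790 CPM at week 12. All libraries after week 6 were below all libraries of week 6, while weeks 8, 10 and 12 overlapped each other. Over the 39 members, the group mean was below that of week 6 for 39 of 39 at weeks 8, 10 and 12. The median log2 ratio to week 6, with 1 CPM added, was -0.87 at week 8, -1.21 at week 10 and -1.53 at week 12. Complete separation from week 6 was found for 27 members at week 8, where 29 of all tested miRNAs separated downward, and for 37 at week 10, where 41 of all did. The week 10 mean was below that of week 8 for 36 members and the week 12 mean below that of week 10 for 33. These values share the week 6 libraries and were not tested.

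miR-127 had 11994, 24432 and 24536 CPM at week 8 and 9355, 14991 and 23948 CPM at week 10. Replicate 1 of week 8 and replicates 1 and 2 of week 10 were at or below the highest week 12 library, and the others lay between week 6 and week 12.

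**Figure D5:**
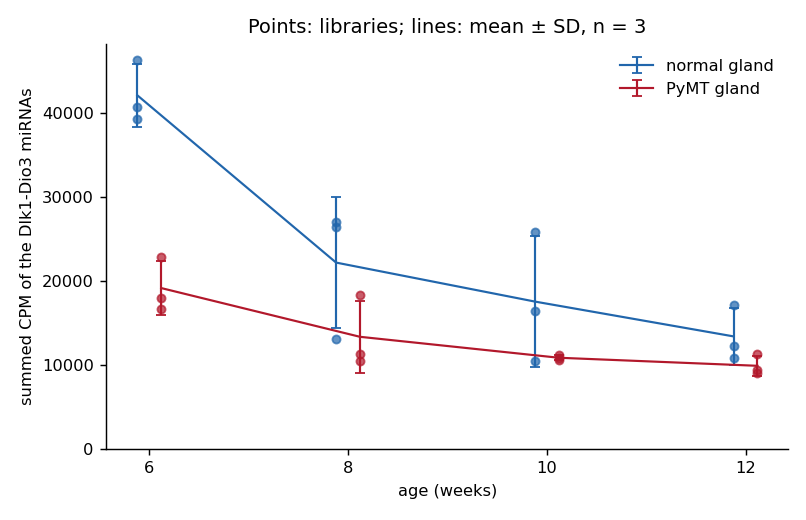
Summed CPM of the Dlk1-Dio3 miRNAs by age in weeks, with each library as a point and mean ± SD (n = 3) as lines, for normal (blue) and PyMT (red) glands. In normal gland the mean was 42140 CPM at week 6 and 13400 CPM at week 12, and in PyMT gland 19160 and 9892 CPM.

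In PyMT glands, which the paper stages as hyperplasia at week 6 and as late carcinoma at week 12, the same 2 weeks were compared in the same way. There, 23 miRNAs were lower at week 12 (9.7% of those tested) and 20 were higher, and 9 Dlk1-Dio3 members were among the lower. Of the 39 members 37 had a value below 0, with a median log2 fold change of -0.69 beside -0.04 over all tested miRNAs. The called members were miR-127, miR-154, miR-136, miR-434, miR-329, miR-411, miR-410, miR-300 and miR-487b, of which the first 8 were also called in normal gland. miR-127 had 21054, 15431 and 16728 CPM at week 6 and 10314, 8698 and 8321 CPM at week 12 in PyMT gland (log2 fold change -0.91 ± 0.15, adjusted p = 0.0145). The levels at week 6 were thus below those of normal gland of the same age. At week 6 all 3 PyMT libraries were below all 3 normal libraries for 38 of 39 members, where 34.6% of all tested miRNAs separated in this way, and at week 12 for 9 members, where 28.7% of all did.

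Whether the change from week 6 to week 12 differed between normal and PyMT glands was tested with an interaction contrast, and 0 miRNAs (0%) were called. The smallest adjusted p-value was 0.123, 31 miRNAs had an unadjusted p-value under 0.05, and DESeq2 called 4 miRNAs, none of them a member. The difference was more negative in normal gland for 38 of 39 members, with a median of -0.95 on the log2 scale beside -0.14 over all tested miRNAs, and 9 members had an unadjusted p-value under 0.05. For miR-127 the difference was -0.76 ± 0.26 (SE, normal minus PyMT, adjusted p = 0.247), and the smallest adjusted p-value among members was 0.24. In simulated data the interaction test recovered 13.6% of differences of 1 log2 unit and 68.7% of differences of 2 log2 units. The 0 calls therefore do not show that the changes were alike.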

How the data were processed

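Small RNA of mammary tissue was sequenced in 24 libraries, of which the 6 normal libraries of weeks 6 and 12 were compared. The authors removed barcode and adaptor, aligned reads of miRNA length with Bowtie, and deposited the counts per miRNA without normalization. Groups, weeks, replicate numbers and lanes were taken from the labels.

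Counts were tested with edgeR 4.0.16 in R 4.3.3 (TMM, quasi-likelihood test, Benjamini-Hochberg adjustment over 237 miRNAs, threshold 0.05) on the 6 libraries, after filterByExpr over all 24 libraries and 8 groups. The interaction was fitted on the 12 libraries of weeks 6 and 12. CPM are scaled by TMM factors of all 24 libraries. The SE is the log2 fold change divided by the square root of F. Floors of 3 counts cover counting error only. The tests of age in normal gland, of age in PyMT gland and of the interaction were checked on simulated data with 60 of 237 miRNAs changed, where 4.39%, 4.57% and 2.76% of calls were false. The simulated miRNAs varied independently and changed in either direction. These shares therefore do not cover miRNAs that vary together, such as members of a cluster.

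Named miRNAs are the 12 lowest fold changes among those called, up to 8 with the lowest p-value in a direction without calls, listed members and the 5 most counted miRNAs. The members and lists were chosen with earlier results of these data known. Alternatives were other normalizations, filters, tests and fits (DESeq2 1.42.0 among them), the lane or the replicate number as a term and each replicate left out. The 3 muscle-related alternatives were added after seeing the data. Positions and sequences are from RefSeq (GRCm38.p6), where all 39 tested members matched. Plots were drawn with matplotlib 3.10.9.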

Additional observations from a re-analysis of the deposited data

How the results depend on the processing

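The direction of the 39 tested Dlk1-Dio3 members was lower at week 12 under every alternative that kept them, and with no filter on low counts 48 of 50 members were lower. The count of 25 calls depended on the fit. It was 25 to 29 with DESeq2 size factors, library sizes only, the filter on the 6 libraries or a fit of the 12 normal libraries. Without the 5 most counted miRNAs it was 27. It was 22 with no filter and 19 with at least 10 counts in every library. A minimum size of 1 log2 unit for a call could not change it, since all 25 had log2 fold changes of -1.29 or lower. The Wald test of DESeq2 called 41 miRNAs (34 lower, 7 higher), the classic exact test of edgeR 35 (2 higher), the fit of all 24 libraries 50 (13 higher), the lane as a covariate 26 (6 higher) and the muscle level as a covariate 34 (6 higher). The higher calls included miR-215 (DESeq2, classic test, fit of 24 libraries), miR-23a and miR-29a (DESeq2, fit of 24 libraries, lane, muscle covariate), and miR-298 was the lower call outside the cluster under DESeq2, the classic test and the muscle covariate. With the 2 or the 3 most muscle-rich libraries left out there were 0 calls. With each replicate left out in turn the calls ranged from 0 to 33, the lower calls from 0 to 28, the members called from 0 to 28 and the higher calls from 0 to 5. The cause was not tested.

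With the replicate number as a block there were 0 calls (smallest adjusted p-value 0.0951), and all 39 members remained below 0 with a median of -1.72. The numbers did not pair the normal libraries: the deviations of same-numbered libraries of the 2 weeks correlated at 0.783, -0.573 and 0.253. The cause of the lost calls was not tested. For the interaction, 4 miRNAs were called by the Wald test of DESeq2, 2 with at least 10 counts in every library, 1 in the fit of all 24 libraries, and 0 to 4 when a replicate was left out. The median log2 fold change of all tested miRNAs was 0.02 with TMM, 0.11 with DESeq2 size factors and -0.23 with library sizes only, and that of the members -1.64, -1.57 and -1.88. In simulated data for the comparison in normal gland, 15.7% of changes of 1 log2 unit, 76.2% of changes of 2 log2 units and 96% of changes of 3 log2 units were recovered.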
